A study of Mus musculus with 14 samples.

Results

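The genes described here are 10 members of the mammalian circadian clock, chosen by name: Clock, Arntl, Npas2, Per1, Per2, Per3, Cry1, Nr1d1, Dbp and Tef. Their array probes were found through the RefSeq accession that the scanner files give for each probe. The 10 genes had 11 of the 55681 probes on the array, 1 each except Dbp with 2. Of the 10, 8 were bright enough in liver to be tested among 21976 features, a feature being a gene or an unnamed transcript represented by 1 probe. Cry1 and Npas2 were not well above background in liver RNA on any of the 14 arrays, so no difference is given for them.

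Livers came from 14 female B6C3F1 mice, a hybrid laboratory strain, aged 5 to 6 weeks when bought. Over 21 days of gavage, 4 control mice received only corn oil, 5 received 1 mg/kg furan and 5 received 8 mg/kg furan, per body weight. Furan is a small ring compound formed in heated food and oxidised by liver cytochrome P450. Every mouse of all 3 groups, controls included, drank bromodeoxyuridine (BrdU, a thymidine analogue taken up into new DNA) for the last 5 days. Livers were taken 4 h after the last dose. The labels give no time of day for dosing or necropsy, and mice without BrdU or gavage are not analysed here.

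The clock is a transcriptional feedback loop that runs in nearly every cell, including hepatocytes. CLOCK or its relative NPAS2 pairs with ARNTL (also called BMAL1) and binds E-box sequences, which switches on the Per and Cry genes, Nr1d1, Dbp and Tef. PER and CRY proteins then inhibit that pair, and NR1D1 represses Arntl through RORE sequences. DBP and TEF bind D-box sequences in further genes. In liver the RNA of Arntl normally runs nearly opposite in phase to that of Dbp.

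Stretches of the promoters are shown because clock proteins are known to act on each other's genes through E-box, D-box and RORE sequences. They were read from the RefSeq promoter table of assembly GRCm38.p6, which covers 250 bases before to 50 after each transcript start and held 9 of the 10 genes (all but Per2). Capitals mark a match to a searched motif, on either strand, and each stretch is written 5′ to 3′ on the strand of its gene. The first motif was the E-box with the letters CACGTG. The second was an E-box variant with the letters CACGTT, which on its opposite strand is read as AACGTG. The third was the D-box with the letters TTATGTAA, and the last was the RORE with the letters TAGGTNA.
Arntl, chr7:113207494-113207523, plus strand: tggtcggaaagTAGGTTAgtggtgcgacat
Arntl, chr7:113207530-113207559, plus strand: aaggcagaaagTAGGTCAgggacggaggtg
Per1, chr11:69098758-69098813, plus strand: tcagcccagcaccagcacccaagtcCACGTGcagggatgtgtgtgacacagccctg
Per3, chr4:151044791-151044895, minus strand: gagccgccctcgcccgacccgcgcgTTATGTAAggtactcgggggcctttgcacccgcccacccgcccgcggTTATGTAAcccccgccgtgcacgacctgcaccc
Cry1, chr10:85185084-85185158, minus strand: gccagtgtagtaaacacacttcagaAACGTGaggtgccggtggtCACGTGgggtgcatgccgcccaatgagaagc
Nr1d1, chr11:98775378-98775430, minus strand: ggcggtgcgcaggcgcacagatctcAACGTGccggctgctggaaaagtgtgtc
Tef, chr15:81802521-81802576, plus strand: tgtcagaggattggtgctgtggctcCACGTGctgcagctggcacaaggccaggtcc
Tef, chr15:81811251-81811306, plus strand: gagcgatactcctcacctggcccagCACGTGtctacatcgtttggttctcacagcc
Shares are given of all 32851 promoters of the same length and of their 27025 genes, since a gene can have several promoters, and the 9 genes had 14. The E-box CACGTG lay in at least 1 promoter of 3 of the 9 genes, beside 8.09% of all genes and 7.15% of all promoters. The variant CACGTT lay in those of 2 genes, Cry1 and Nr1d1, beside 5.44% of genes and 4.68% of promoters. The D-box lay in Per3 alone among the 9, with 2 matches, beside 1.11% of genes and 0.938% of promoters. The RORE lay in Arntl alone among the 9, beside 9.51% of genes and 8.29% of promoters. A match describes these letters in this window and is not a measured binding site.

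Values are log2 ratios of liver RNA (Cy5 dye) over a universal mouse reference RNA (Cy3 dye) hybridised to the same array, so 0 means equal to the reference. A level can therefore be compared between mice for 1 gene but not between genes. Differences were tested with limma over all features, with the glass slide on which an array lay as a term in the model and Benjamini-Hochberg adjustment at a threshold of 0.05. Errors of differences are standard errors (SE), and errors of group means are standard deviations (SD). Liver RNA gave a signal well above background at 23065 to 29850 probes, depending on the array. The first principal component of the data held 30.7% of the variance and lay mostly between slides (87.2% of it), the second 16.7% and mostly between dose groups (85.4%). The mean of the 7 hepatocyte markers was 6.26 to 7.93 in controls, 6.27 to 8.00 at 1 mg/kg and 6.28 to 7.72 at 8 mg/kg, on the log2 ratio scale, far above the reference. Of these 7, Cps1 was lower at 8 mg/kg against control (-0.34), and no measured marker of the 9 other cell types checked passed in that comparison. At 8 against 1 mg/kg the stellate cell marker Lrat was lower (-0.64). The part of these markers in the values of the clock genes was not tested. In such whole tissue, fewer cells of a type and less RNA per cell cannot be told apart.

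In the positive limb of the loop, Clock rose at 8 mg/kg against control and Arntl rose at 8 against 1 mg/kg. Among the 8 genes tested at 8 mg/kg against control, 1 passed, Clock, as higher, beside 4.09% of all features (2.73% higher and 1.36% lower). None of the 8 passed at 1 mg/kg against control, where 0% of all features did and 6.9% had an unadjusted p under 0.05. At 8 against 1 mg/kg, 2 of 8 passed, Arntl as higher and Per3 as lower, beside 5.28% of all features (2.41% higher and 2.88% lower). The comparisons share mice, so their values are not independent of each other.

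Arntl, the partner of CLOCK, had log2 ratios of -1.87, -1.72, -2.03 and -2.24 in the 4 control mice. It had -1.86, -1.80, -2.35, -2.07 and -2.44 in the 5 mice at 1 mg/kg. In the 5 mice at 8 mg/kg it had 0.11, -0.83, -1.50, -0.99 and -1.96. At 8 mg/kg, 4 of the 5 mice lay above all 9 other mice, and mouse 5 lay among them. The SD was 0.22 in controls, 0.29 at 1 mg/kg and 0.78 at 8 mg/kg, and this difference in spread was not tested. Arntl was 1.07 ± 0.23 higher at 8 than at 1 mg/kg (SE, n = 5 each; 2.10-fold, adjusted p = 0.0184) and higher in 5 of 5 pairs of mice that shared a slide. Against control the difference was 0.95 ± 0.25 (n = 5 against 4; 1.93-fold), which missed the threshold at adjusted p = 0.0512, with 3 of 4 slide pairs higher. At 1 mg/kg against control it was -0.12 ± 0.25 (adjusted p = 0.942). Leaving out mouse 1 of the 8 mg/kg group, the highest, gave 0.82 against 1 mg/kg (adjusted p = 0.0562), and leaving out mouse 1 or mouse 5 of the 1 mg/kg group gave 0.97 (adjusted p = 0.0715) or 1.01 (adjusted p = 0.0507). The probe was well above background on 13 of 14 arrays, all but that of control mouse 4.

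Clock, the DNA-binding partner of ARNTL, had log2 ratios of -0.50, -0.15, -0.55 and -0.76 in control mice. It had -0.29, -0.30, -0.64, -0.40 and -0.44 at 1 mg/kg. It had 0.29, 0.59, -0.19, 0.03 and -0.24 at 8 mg/kg. All 5 mice at 8 mg/kg lay above all 5 at 1 mg/kg, a separation upward seen in 2.01% of all features, while control mouse 2 lay above 2 of the mice at 8 mg/kg. Clock rose by 0.61 ± 0.16 at 8 mg/kg against control (SE, n = 5 against 4; 1.52-fold, adjusted p = 0.0444), and was higher in 3 of 4 slide pairs. At 8 against 1 mg/kg it differed by 0.51 ± 0.14 (adjusted p = 0.0543), higher in 5 of 5 slide pairs, and at 1 mg/kg against control by 0.10 ± 0.16 (adjusted p = 0.917). The call against control stood close to the threshold: it was lost without control mouse 1 (0.56, adjusted p = 0.145), control mouse 3 (0.51, 0.15) or control mouse 4 (0.54, 0.128). It was also lost without mouse 1 (0.57, adjusted p = 0.128), 2 (0.46, 0.105) or 4 (0.59, 0.0846) of the 8 mg/kg group, and without mouse 1 (0.61, 0.0609) or 5 (0.60, 0.0564) of the 1 mg/kg group.

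Npas2, which can stand in for CLOCK, could not be compared, and neither could Cry1, a repressor that acts with the PER proteins. Each had 1 probe, and neither probe was well above background in liver RNA on any array.

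**Figure D1:**
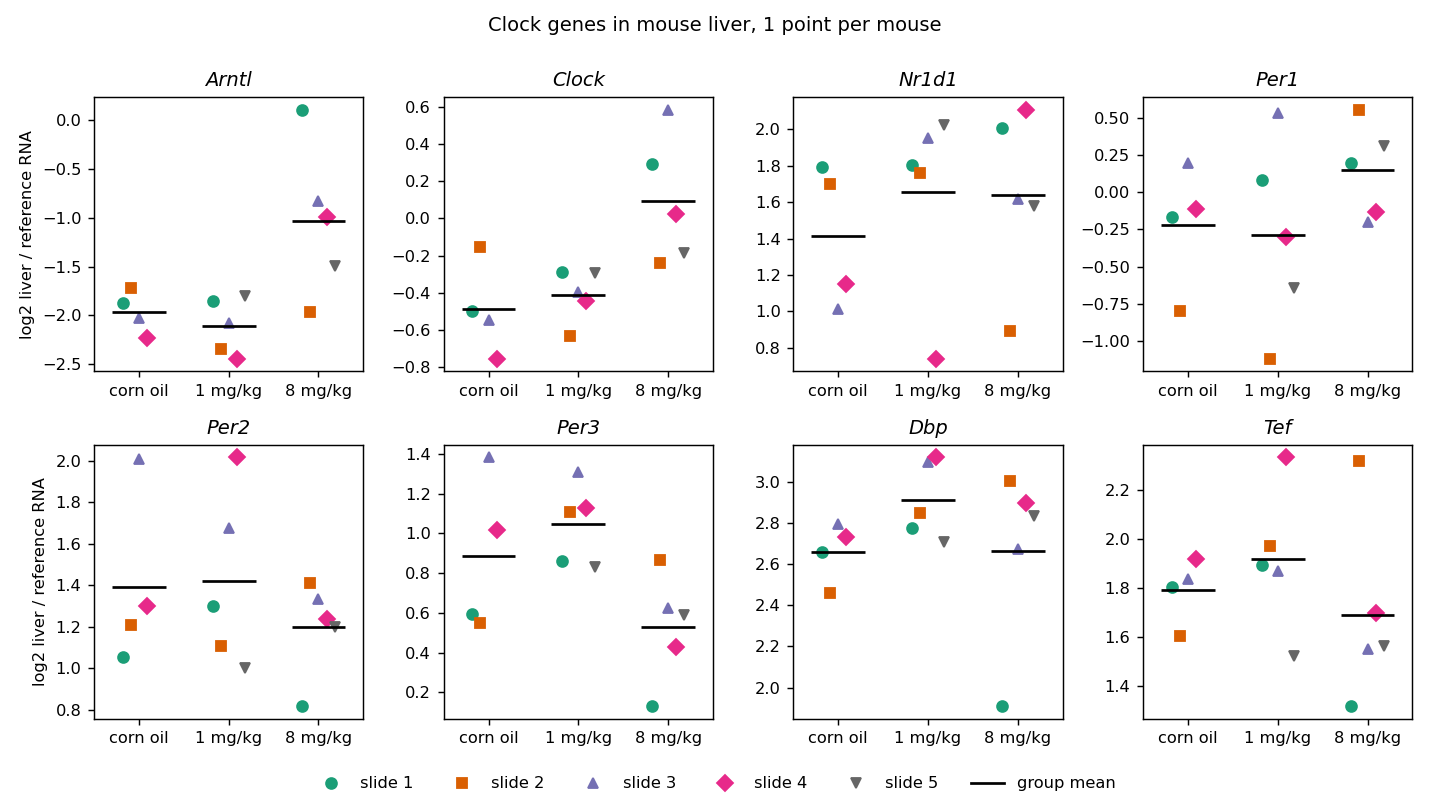
Log2 ratio of liver over reference RNA (vertical axis, a separate scale for each gene) of the 8 measured clock genes in corn oil, 1 mg/kg and 8 mg/kg mice, 1 point per mouse, with colour and shape for the slide and a bar for the group mean. Arntl at 8 mg/kg ran from -1.96 to 0.11, while Dbp and Tef had their lowest mouse of all 14 on slide 1 at that dose.

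The plot of each mouse by gene shows that the mouse with the most Arntl, mouse 1 of the 8 mg/kg group, was also the one with the least Per3, Dbp and Tef. The mouse of the same dose with the least Arntl, mouse 5, had the most Per3, Dbp and Tef of its group.

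Among the repressors, Per3 was lower at 8 than at 1 mg/kg, and neither Per1 nor Per2 passed in any comparison. Per3, the least essential of the 3 Period genes for rhythm in mice, had log2 ratios of 0.60, 0.55, 1.38 and 1.02 in control mice. It had 0.86, 0.83, 1.11, 1.31 and 1.13 at 1 mg/kg. It had 0.13, 0.63, 0.59, 0.43 and 0.87 at 8 mg/kg. Mice at 8 mg/kg lay below those at 1 mg/kg except mouse 5, which lay among the lowest of them, and controls 1 and 2 lay within the 8 mg/kg range. Per3 fell by 0.52 ± 0.12 on the log2 scale at 8 against 1 mg/kg (SE, n = 5 each; 1.43-fold lower, adjusted p = 0.0292) and was lower in 5 of 5 slide pairs. Against control it differed by -0.34 ± 0.14 (adjusted p = 0.178), with 3 of 4 slide pairs lower. The call at 8 against 1 mg/kg was lost without any 1 of mice 1, 3, 4 and 5 of the 1 mg/kg group or of mice 1, 2 and 4 of the 8 mg/kg group. The value was then -0.53 to -0.45, with adjusted p between 0.0558 and 0.0963.

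Per1, a Period gene that also answers directly to signals such as glucocorticoids, had log2 ratios of -0.17, -0.80, 0.20 and -0.11 in control mice. At 1 mg/kg it had 0.08, -0.64, -1.12, 0.54 and -0.30, and at 8 mg/kg 0.20, -0.20, 0.32, -0.13 and 0.56. The groups overlapped. The difference was 0.39 ± 0.26 at 8 mg/kg against control (adjusted p = 0.424) and 0.44 ± 0.24 at 8 against 1 mg/kg (adjusted p = 0.311). The 95% interval of the first was -0.16 to 0.95, which leaves room for a rise as large as that of Arntl.

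Per2, a Period gene whose loss disturbs daily rhythm in mice, ran from 1.05 to 2.01 in controls (median 1.26). It ran from 1.00 to 2.02 at 1 mg/kg (median 1.30) and from 0.82 to 1.41 at 8 mg/kg (median 1.24). The groups overlapped, and the difference at 8 mg/kg against control was -0.14 ± 0.17 (adjusted p = 0.683).

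Nr1d1, which encodes the REV-ERB alpha repressor of Arntl, had log2 ratios of 1.79, 1.70, 1.01 and 1.15 in control mice. It had 1.81, 2.03, 1.76, 1.95 and 0.74 at 1 mg/kg, and 2.01, 1.62, 1.58, 2.11 and 0.89 at 8 mg/kg. Each dose group held 1 mouse well below the rest of its group, mouse 5 in both. The differences were 0.19 ± 0.26 at 8 mg/kg and 0.20 ± 0.26 at 1 mg/kg against control (adjusted p = 0.743 and 0.896).

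The output genes Dbp and Tef, which encode related leucine zipper activators of D-box genes, did not pass in any comparison. Dbp had log2 ratios of 1.91, 2.68, 2.84, 2.90 and 3.00 at 8 mg/kg, against 2.66, 2.46, 2.80 and 2.73 in control mice. Mouse 1 at 8 mg/kg lay below all other mice. The difference at 8 mg/kg against control was 0.01 ± 0.16 (adjusted p = 0.988, 95% interval -0.33 to 0.34). Its other probe averaged 2.52 at 8 mg/kg and 2.72 in controls, a fitted difference of -0.17. Tef ran from 1.32 to 2.32 at 8 mg/kg, against 1.60 to 1.92 in controls, with a difference of -0.04 ± 0.16 (adjusted p = 0.928). At 1 mg/kg both genes were above the control of the same slide on 4 of 4 slides, by 0.12 to 0.39 for Dbp and 0.03 to 0.42 for Tef, and neither passed (adjusted p = 0.757 and 0.816).

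**Figure D2:**
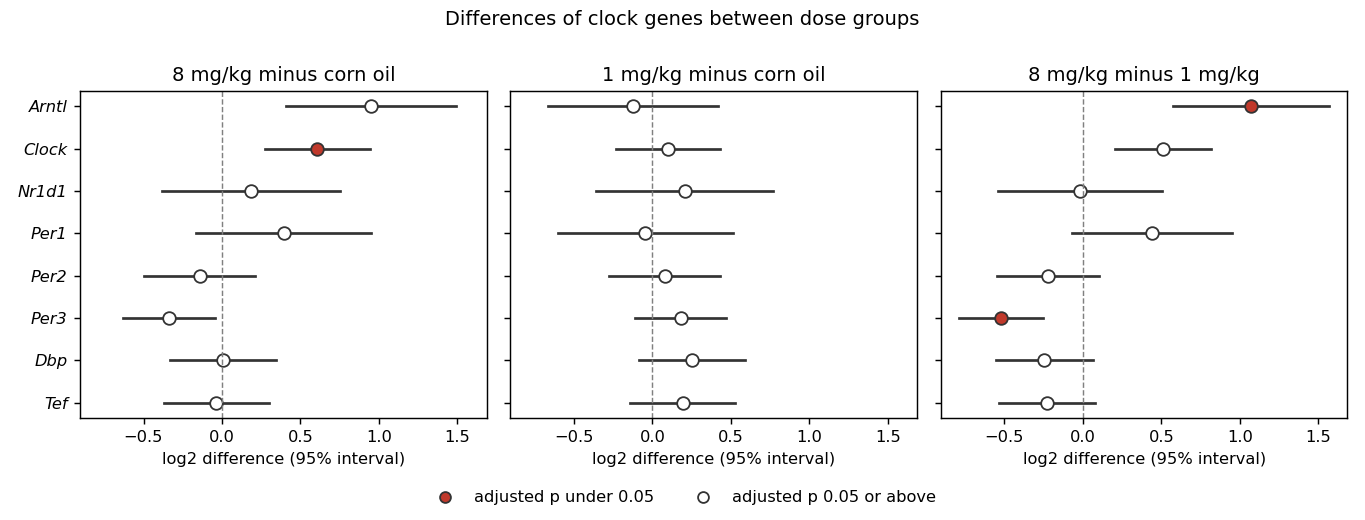
Difference of the 8 clock genes between dose groups on the log2 scale (horizontal axis), with 95% intervals from the limma fit, in 3 panels for 8 mg/kg minus corn oil, 1 mg/kg minus corn oil and 8 minus 1 mg/kg. Filled points passed the adjusted threshold: Clock in the first panel, and Arntl and Per3 in the third.

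In the plot of differences with intervals, every interval of the 1 mg/kg panel includes 0. The widest intervals were those of Nr1d1, Per1 and Arntl, the members that varied most between mice.

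All 8 genes varied more over the 14 arrays, with the dose groups pooled, than most features. The SD over the 14 arrays was 0.69 for Arntl, at the 99.5th percentile of all features, 0.49 for Per1 (97.3) and 0.45 for Nr1d1 (96.3). The other 5 stood at the 85.9th to 92.3rd percentile, beside a median SD of 0.18 over all features. These SDs include differences between dose groups. The share of variance between dose groups was 56.2% for Clock, 53.2% for Arntl and 43.3% for Per3. It was 6% to 17.5% for Per1, Per2, Nr1d1, Dbp and Tef, beside a median of 14.8% over all features.

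The slides were compared because clock RNA changes with the hour and the labels give no hour. None of the 8 genes passed between slides, beside 14.9% of all features, and 2 of 8 had an unadjusted p under 0.05, beside 31.9%. Per2 came nearest, with slide means spanning 0.62 after dose was allowed for (adjusted p = 0.129; unadjusted p = 0.0358), followed by Per3 with 0.58 (adjusted p = 0.139). Per3 passed without control mouse 2 (0.58, adjusted p = 0.0378), and Per1 passed with the liver channel alone (0.96, adjusted p = 0.0391). With the liver channel alone 13658 features passed between slides, against 3277 in the main fit, so the Per1 call there is not particular to the clock genes. The share of variance between slides was 9.29% for Clock, 18.3% for Arntl and 50.9% for Per2, beside a median of 42.4% over all features. Slide and hour of necropsy were not linked by any label, so a slide stands only for a slide here. By contrast all 7 hepatocyte markers differed between slides, with a median span of 1.70. This was not particular to hepatocytes, since every other marker list held markers that differed. Among them were 3 of 3 measured erythroid markers (median span 1.23) and 4 of 6 Kupffer cell markers (0.93). Without slide 3, the features that differed between slides fell from 3277 to 488.

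**Figure D3:**
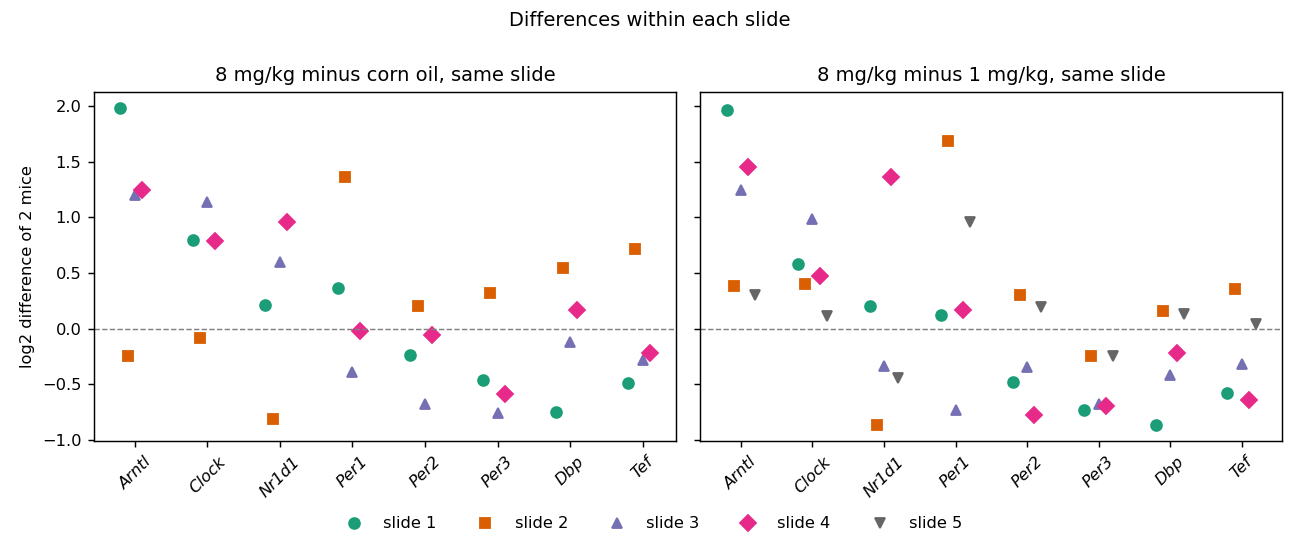
Log2 difference between the 2 mice that shared a slide (vertical axis) for each clock gene, as 8 mg/kg minus corn oil on 4 slides and 8 minus 1 mg/kg on 5 slides, with colour and shape for the slide. On slide 2 the signs of Arntl, Clock, Per2, Per3, Nr1d1 and Tef against corn oil were opposite to those on slides 1, 3 and 4.

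The plot of differences within slides shows how far slide 2 stood from the others. There the 8 mg/kg mouse minus the control mouse gave -0.25 for Arntl, -0.09 for Clock, 0.32 for Per3 and 0.72 for Tef. On slides 1, 3 and 4 the same differences were 1.20 to 1.98 for Arntl, 0.78 to 1.14 for Clock, -0.76 to -0.47 for Per3 and -0.49 to -0.22 for Tef. That slide held mouse 5 of the 8 mg/kg group and control mouse 2. Against the 1 mg/kg mouse of the same slide, Arntl and Clock were higher and Per3 lower on slide 2 as well, by 0.38, 0.40 and -0.24.

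Across the 14 arrays some pairs of members varied together and others did not. Per1 had an r of only -0.21 to 0.29 with the other 7. Arntl correlated with Clock at r = 0.86 and with Per3, Tef and Dbp at -0.82, -0.75 and -0.74, and Dbp with Tef at 0.73. Nr1d1, the repressor of Arntl, had a positive r with Arntl (0.50) and Clock (0.36). With Tef, Per2, Per3 and Dbp its r was -0.72, -0.69, -0.50 and -0.40, so it did not vary together with these genes. These are descriptions over arrays that share slides, dose groups and the reference channel. The r of Arntl with Dbp leans on mouse 1 of the 8 mg/kg group, which had the highest Arntl (0.11) and the lowest Dbp (1.91) of all mice. After slide and dose were removed, which left 7 residual degrees of freedom, r with Arntl was 0.72 for Clock, -0.83 for Per3, -0.92 for Dbp and -0.93 for Tef. It was 0.62 for Nr1d1 and -0.58 for Per2. The residual r of Nr1d1 with Tef, Per2, Per3 and Dbp was -0.81, -0.80, -0.72 and -0.36. For comparison, the middle 95% of 21960 features had a residual r with Arntl between -0.74 and 0.72. Arntl and Per1 had r = 0.20 before and -0.61 after that removal.

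**Figure D4:**
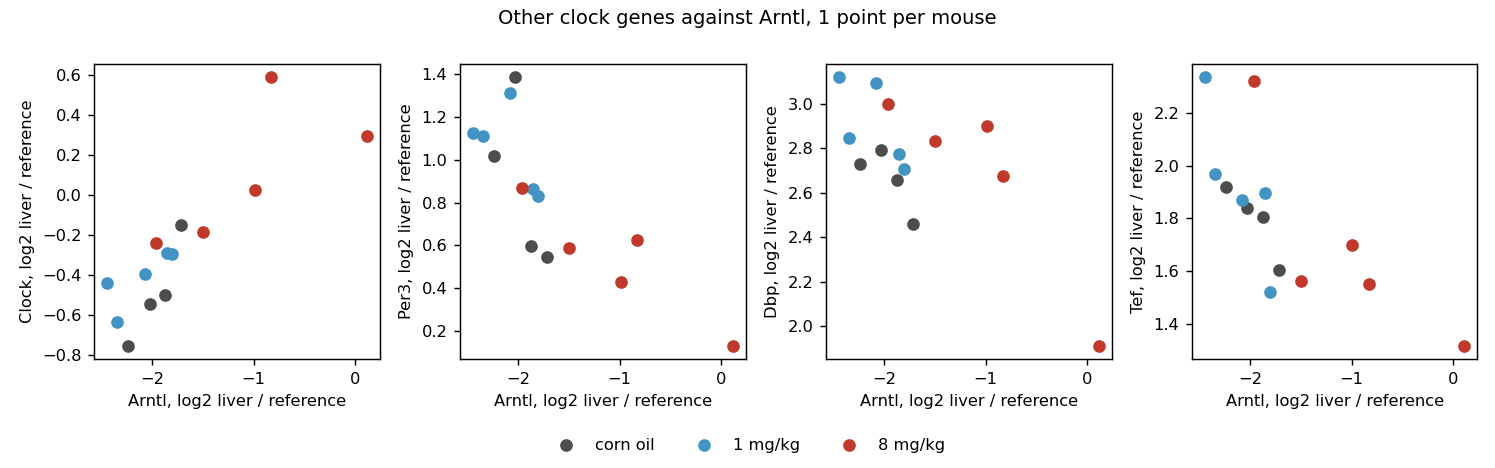
Log2 ratio of Clock, Per3, Dbp and Tef (vertical axes) against that of Arntl (horizontal axis), 1 point per mouse, coloured by dose group. Clock was higher and Per3 and Tef were lower in mice with more Arntl. The mouse farthest right is mouse 1 at 8 mg/kg, which also had the lowest Dbp, and the fall of Dbp with Arntl leans on that mouse.

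In the scatter against Arntl, mouse 1 of the 8 mg/kg group sits apart at 0.11, and Dbp there is 1.91. Of 11639 named features bright on all 14 arrays, those most like Arntl by Pearson r over the 14 arrays were Clpx (0.943), Grhl1 (0.92), Tubb2a (0.919), Tars (0.91) and Tor3a (0.90). Clock ranked 13th. The most opposite were Gda (-0.891), Rcbtb1 (-0.885), Ngef (-0.862), Nfic (-0.86) and Nmrk1 (-0.844). Among the features most like Dbp were Coq10b (0.851), Tor1a (0.834), Bri3 (0.824) and Smarca2 (0.819). The most opposite to Dbp were Pdgfc (-0.84), Slk (-0.83), Vcp (-0.826), Smc2 (-0.826) and Ankle1 (-0.788). After slide and dose were removed, the features most opposite to Arntl were Usp2 (-0.98), Pih1d1 (-0.978), Wee1 (-0.971), Slc5a6 (-0.969) and Stard7 (-0.958). Among the most alike were then Dhx36 (0.958), Pnp (0.943), Cse1l (0.939) and Mtm1 (0.935), and Clock ranked 345th. For Dbp the most alike were then Cebpe (0.967), Fzd4 (0.957), Rcbtb1 (0.946) and Ogfod2 (0.944), the first 4 by rank. The most opposite were Rbsn (-0.992), Glyr1 (-0.977), Pdgfc (-0.974), Sptlc2 (-0.949) and Tubb2a-ps2 (-0.948). Usp2, a ubiquitin protease, and Wee1, a cell cycle kinase, are known clock output genes of mouse liver, and no other gene in these residual rankings is on the clock lists used here.

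**Figure D5:**
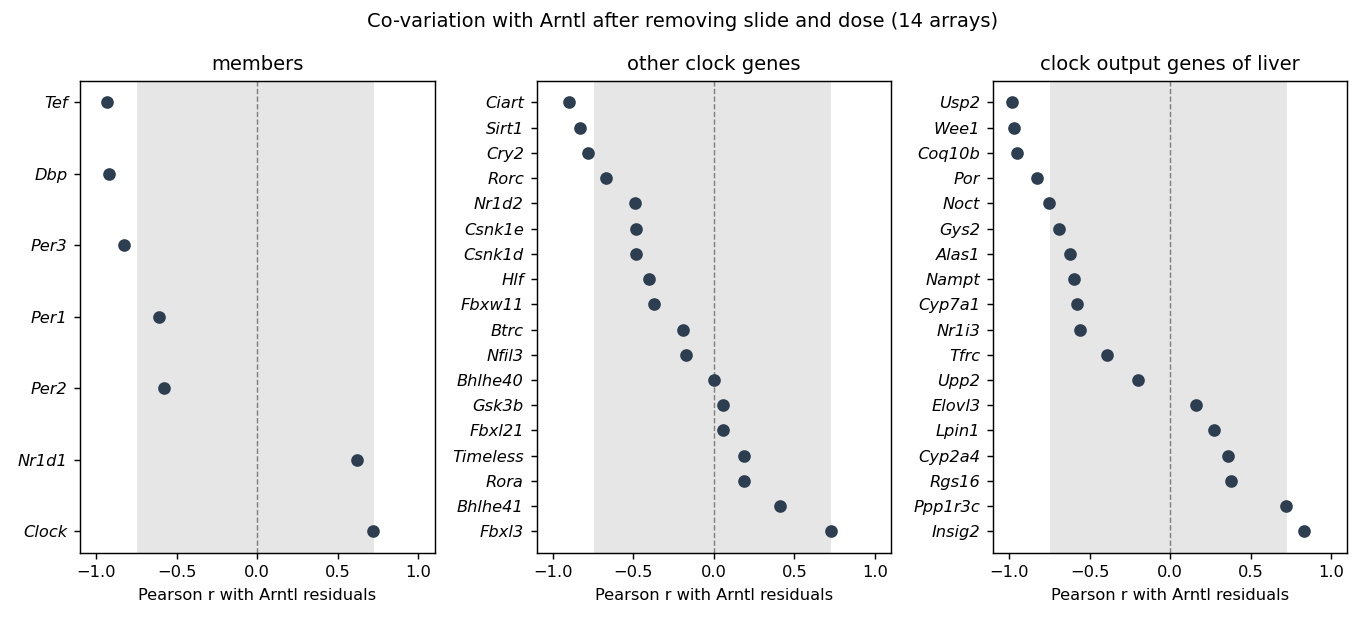
Pearson r with Arntl over 14 arrays after slide and dose were removed (horizontal axis), for the members, other clock genes and clock output genes of liver. The grey band is the middle 95% of all features, -0.74 to 0.72. Usp2, Wee1, Coq10b, Tef and Dbp lie beyond its lower edge.

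The plot of residual correlations covers lists of further clock genes written from general knowledge. Of 19 other clock genes 18 were measured, and none passed at 8 mg/kg against control, where 4.09% of all features did. Their median difference was 0.16, beside 0.002 over all features. The nearest were Csnk1d, a casein kinase that phosphorylates PER proteins (0.32 ± 0.09, adjusted p = 0.0527), and Sirt1, a deacetylase (0.34 ± 0.09, adjusted p = 0.0537). Gsk3b, a kinase that acts on several clock proteins, was the 1 of 18 to pass at 8 against 1 mg/kg (0.35 ± 0.08, adjusted p = 0.0267), beside 5.28% of all features. That call held in 15 of 28 alternatives.

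Among 19 clock output genes of liver 18 were measured, and 1 was lower and 0 higher at 8 mg/kg against control, with a median of -0.15. Over all features 1.36% were lower and 2.73% higher, with a median of 0.002. Elovl3, a fatty acid elongase with a strong daily rhythm in mouse liver, had 0.37, 0.27, 0.80, 0.29 and -0.08 at 8 mg/kg, against 1.05, 1.43, 1.60 and 0.82 in controls. The groups did not overlap, which held downward for 2.13% of all features. Elovl3 fell by 0.94 ± 0.18 (adjusted p = 0.0124), and the call was lost without control mouse 2 (-0.85, adjusted p = 0.0515) or control mouse 3 (-0.82, 0.0576). It was also lost without slide 3 (-0.81, adjusted p = 0.0745) and with the scanner software's processed signals (-1.95, 0.144). At 8 against 1 mg/kg, 3 of 18 were lower and 0 higher: Elovl3 (-0.76 ± 0.17, adjusted p = 0.019), Rgs16 (-1.09 ± 0.22, 0.0132) and Upp2 (-0.96 ± 0.18, 0.00881). Over all features 2.88% were lower and 2.41% higher in that comparison. Rgs16 encodes a regulator of G protein signalling and Upp2 a liver uridine phosphorylase. The Elovl3 call at 8 against 1 mg/kg was lost in 7 of 27 alternatives. Among these were leaving out mouse 1 (-0.63, adjusted p = 0.0714) or 3 (-0.69, 0.0581) of the 1 mg/kg group. The others included leaving out mouse 1 (-0.75, 0.0618), 2 (-0.71, 0.0509) or 5 (-0.62, 0.0564) of the 8 mg/kg group, and processed signals (-1.38, 0.234). The Rgs16 and Upp2 calls were each lost in 3 of 28. These were the fit without the slide term (adjusted p = 0.115 and 0.075), the replicate block (0.183 and 0.102) and processed signals (0.096 and 0.588), where Upp2 differed by only -0.31. Gys2, Cyp2a4 and Nr1i3 of this list differed between slides, 3 of 18 beside 14.9% of all features.

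Lists of signals that can shift the liver clock were read beside these. For comparison with their counts, 4.09% of all features passed at 8 mg/kg against control and 5.28% at 8 against 1 mg/kg. Of 13 glucocorticoid responsive genes, Sgk1, a kinase, rose at 8 mg/kg against control (0.53 ± 0.14, adjusted p = 0.048) and 12 did not pass. The Sgk1 call held in 5 of 28 alternatives. Mt2, a metallothionein, fell by 0.91 ± 0.16 at 8 against 1 mg/kg (adjusted p = 0.00725), and did not pass against control at 8 mg/kg (-0.10 ± 0.18) or at 1 mg/kg (0.81 ± 0.18, adjusted p = 0.582). The Mt2 call was lost with slide as a random block (adjusted p = 0.0705), without the slide term (0.31) and with the replicate block (0.394). Of 8 measured temperature responsive genes, Hspb1, a small heat shock protein, rose by 1.07 ± 0.19 at 8 mg/kg against control (adjusted p = 0.00793). That call was lost with the replicate block (adjusted p = 0.098) and with processed signals (0.0515). Of 10 fasting and feeding responsive genes, Pdk4, an inhibitor of glucose oxidation, rose by 0.85 ± 0.20 (adjusted p = 0.0309), a call that held in 18 of 28 alternatives. Acacb, an acetyl-CoA carboxylase, fell by 0.88 ± 0.13 (adjusted p = 0.00195), and 8 of the 10 did not pass. The part of these signals in the values of the clock genes was not tested.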

How the data were processed

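Each liver RNA was labelled with Cy5 and a universal reference RNA with Cy3 on 2-colour Agilent arrays, in 1 dye orientation, per the labels. The deposited scanner files hold spot intensities from Feature Extraction 10.7.3.1, per the file headers. A further deposited file holds the authors' linear ratios, whose log2 correlated at 0.9921 to 0.9951 with the values here (column medians 0.9765 to 0.9897). Those ratios run as Cy5 over Cy3, with a normalization not given in the sources used here.

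Median intensities were background-corrected (normexp, offset 50) and normalized by loess within arrays in limma 3.58.1 (R 4.3.3), and log2 ratios were computed from the deposited intensities. The planned wording was spot intensity, and the median was used. Control spots (3671 of 62976) and outlier spots (178 to 336 per array) were left out, and no spot was saturated. Probes were kept if well above background in liver RNA on at least 4 arrays (28867), and the brightest stood for a gene. RefSeq accessions named 26413 of 55681 probes. lmFit and eBayes were run on all 14 arrays with slide as a fixed block (5 slides, 4 with all 3 groups). The number of arrays limits the precision. The fit was tested on simulated data. Computing also used the data.table package (1.17.8), Python 3.11.15, pandas 2.3.3 and matplotlib 3.10.9.

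The genes and lists were chosen with earlier results of these data known. All members were named. Of each list, genes that passed any test were named, or otherwise the 2 with the smallest p at 8 mg/kg against control. Of genes like Arntl and Dbp, the 5 highest and 5 lowest by r were named, except some that are not reported here. Csnk1d and Sirt1 were added after their values were seen. Alternatives covered the block, background correction, normalization, filter, probe rule, variance moderation and each array left out. The use of the other Dbp probe was added after seeing the data.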

Additional observations from a re-analysis of the deposited data

Results flagged for a closer look

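Nr1d1 in mouse 5 of the 1 mg/kg group had a log2 ratio of 0.74, far below the 1.76 to 2.03 of the other 4 mice of its group. Of the 24 sets of 1 gene in 1 dose group that were checked for a single distant mouse, this was the 1 found, and chance gives about 1 in 20. In the same mouse Tef was the highest of all 14 mice at 2.34.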

How the results depend on the processing

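At 8 mg/kg against control, 898 features passed. This became 273 without the slide term, 304 with only the arrays of those groups, 401 without slide 3, 389 with processed signals, and 315 (without 8 mg/kg mouse 1) to 871 with 1 array left out. At 8 against 1 mg/kg, 1161 became 297 without the slide term, 430 with processed signals, 647 with scale normalization and 419 (without 8 mg/kg mouse 1) to 1254 with 1 array left out. At 1 mg/kg against control, 0 became 1 each with no background correction, the authors' ratios and no filter, and 0 to 3 with 1 array left out. Between slides, 3277 became 488 without slide 3, 1064 with processed signals, 13658 with the liver channel alone and 1763 to 3064 with 1 array left out. Of the calls at 8 mg/kg against control, 66.8% were higher, and 48.5% with the liver channel alone; at 8 against 1 mg/kg 45.6% were, and 40.5% to 68% over the other settings.

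The Clock call against control held in 14 of 28 alternatives (0.38 to 0.82, adjusted p 0.00558 to 0.166). At 8 against 1 mg/kg, Arntl held in 19 of 27 (0.83 to 1.58, adjusted p 0.00551 to 0.13) and Per3 in 15 of 28 (-0.78 to -0.35, adjusted p 0.0101 to 0.14). Arntl against control passed in 6 of 27 and Clock at 8 against 1 mg/kg in 8 of 28. The cause of these changes was not tested. Signs turned only for differences that did not pass. Dbp at 8 mg/kg against control was -0.04 with only those groups, -0.007 with no background correction, -0.138 with processed signals, -0.004 with scale normalization, -0.072 with the authors' ratios, -0.085 with the liver channel alone, -0.082 with the mean over probes and -0.17 with its other probe. Nr1d1 at 8 against 1 mg/kg was 0.063 without slide 3, 0.023 with processed signals, 0.085 with scale normalization, 0.002 with the authors' ratios and 0.117 with the liver channel alone. Without slide 3, Per2 (0.032) and Tef (0.044) turned at 8 mg/kg against control and Nr1d1 (-0.027) at 1 mg/kg. At 1 mg/kg against control, Arntl was 0.204 with processed signals and 0.039 with scale normalization, Per2 -0.081, -0.026 and -0.011 with processed signals, scale normalization and the liver channel, Per1 0.02 with only those groups and Clock -0.024 with the liver channel. After slide and dose were removed, r with Per1 was -0.65 for Clock and -0.61 for Arntl.

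With 1 array left out, the range was -0.127 to 0.204 for Dbp, -0.226 to 0.079 for Tef, -0.265 to 0.017 for Per2 and -0.12 to 0.451 for Nr1d1 at 8 mg/kg against control. It was -0.318 to 0.162 for Arntl, -0.268 to 0.173 for Per1 and -0.091 to 0.237 for Per2 at 1 mg/kg against control, and -0.291 to 0.218 for Nr1d1 at 8 against 1 mg/kg.

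Mice with the same replicate number in the labels were less alike than mice of the same slide. In deviations from group means, same-numbered mice correlated at -0.42 to 0.25 (median 0.08) and same-slide mice at 0.09 to 0.66 (median 0.22). Mice sharing neither had a median of -0.08. Of 14 arrays, 3 correlated best with their own number, against 10 of 14 with their own slide. The mice numbered 1 all lay on slide 1, so number and slide cannot be fully told apart. With the replicate block in place of the slide, 122 features passed at 8 mg/kg against control, 150 at 8 against 1 mg/kg and 0 at 1 mg/kg. Arntl at 8 mg/kg against control was then 1.09 (adjusted p = 0.0456), Per3 at 8 against 1 mg/kg -0.52 (0.108) and Dbp -0.065 against control. At 1 mg/kg against control Arntl was 0.016, Per2 -0.074 and Tef -0.005.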
